A study of Mus musculus with 12 samples.

Results

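Gene expression in blood stem and progenitor cells that carried both the loss of miR-146a and a mutant Runx1 was compared with that in wildtype cells, over all genes measured. The members were chosen by the group that the deposited metadata gives each count column, "Runx1 Mir-146 KO" or "Empty", and they are 6 of the 12 libraries, 3 in each group. The cells were GFP-positive LSK cells, bone marrow cells that lack lineage markers and carry both Kit and Sca-1 on the surface, among which are stem cells and early multipotent progenitors. The sorted mice were secondary recipients of a transplant of stem and progenitor cells of each genotype. The wildtype group has the genotype miR-146a wildtype/Runx1 wildtype and the double group miR-146aKO/Runx1S291fsX300, a frameshift form of Runx1 on a miR-146a knockout background. The single genotypes were Runx1S291fsX300 and miR-146aKO, titled Mir-146 KO/Empty. They were used to place the double one, and their libraries also entered the low-count filter, the scaling and the spread estimate of the main test. All groups share the GFP gate and the secondary transplantation. The labels do not give the strain, age or sex of donors or recipients, how the mutant Runx1 entered the cells, what Empty stands for, or whether each library is a different animal, and p-values here reflect only how libraries of a group vary.

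miR-146a is a microRNA that is induced by inflammatory signals and represses the adaptor TRAF6 and the kinases IRAK1 and IRAK2, steps between Toll-like or IL-1 receptors and NF-kB. RUNX1 is a DNA-binding transcription factor that acts with its partner CBFB and is needed for the formation of blood stem cells, for megakaryocytes and for lymphocytes, and it is mutated in myeloid neoplasms. LSK cells hold the long-term stem cells that maintain all blood lineages, and in inflammation their output shifts towards myeloid cells.

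The mature miR-146a-5p and its paralogue miR-146b-5p, which shares the seed, are shown because the seed defines the target genes counted in this comparison. Both are from RefSeq (GRCm38.p6), and capitals mark the seed, bases 2 to 8.
mmu-miR-146a-5p, chr11:43374435-43374456, minus strand: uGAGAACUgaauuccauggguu
mmu-miR-146b-5p, chr19:46342790-46342811, plus strand: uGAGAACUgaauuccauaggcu
The matching sites in the 3′ untranslated regions of the signalling targets are printed as DNA on the gene's strand, with the seed match AGTTCTC in capitals (GRCm38, GENCODE). Traf6 holds 4 such sites and Irak2 2, of which 2 and 1 are shown.
Traf6, chr2:101697945-101697966: ccgctctggtgttgAGTTCTCa
Traf6, chr2:101698009-101698030: ccctggaaggcttaAGTTCTCa
Irak1, chrX:74015393-74015414: gactcagaggtcaaAGTTCTCa
Irak1, chrX:74015377-74015398: ttctcatgcttggaAGTTCTCa
Irak2, chr6:113694252-113694273: ccggtgtctccgcaAGTTCTCa
Card10, chr15:78775583-78775604: acaccctggaatagAGTTCTCa

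Levels are CPM, raw counts scaled to a common library size with TMM factors. Values are given in the order A015, A040 and A053 for wildtype and A001, A031 and A051 for the double libraries, and where a sentence gives 2 sets of 3 values wildtype comes first. Mir146 had 0 counts in the 3 wildtype libraries, in A001 and in A051, and 14 counts in A031. These 14 counts do not go with the knockout that the A031 label names, and their source was not tested. With 0 counts in libraries labelled with intact miR-146a, a 0 elsewhere checks nothing. The label was kept as given, so double libraries means the libraries labelled so, and results that rest on A031 are given with and without it. Runx1 (chr16:92601466-92826149) was measured at 241, 359.5 and 237 CPM in wildtype and 120.2, 259 and 191 in the double libraries, groups that overlap (log2 fold change -0.55 ± 0.44 SE, edgeR adjusted p = 0.716). A count per gene shows neither the frameshift nor the source of the transcript. Its partner Cbfb stood at 134, 232 and 188 CPM in wildtype and 92, 106 and 107 in the double libraries. The double libraries were all lower for Cbfb, but the test did not pass (log2 fold change -0.86 ± 0.36, edgeR adjusted p = 0.49). The related factors Runx2 and Runx3 overlapped between the groups, with log2 fold changes of 0.30 ± 0.59 and 0.20 ± 0.52.

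Total counts were 4387524 to 6642886 in wildtype and 4907029 to 6522388 in the double libraries, with 3.91% to 17.8% assigned to the ribosomal RNA gene Rn45s. Spearman correlations of counts over genes were 0.885 to 0.904 within wildtype, 0.880 to 0.890 within the double group and 0.865 to 0.899 between them. In a principal component analysis of log2 CPM over the 6 libraries, wildtype lay at 52.7 to 82.9 on the first component (31.7% of the variance), A001 and A051 at -84.3 and -128, and A031 at 12. A031 was thus between the other double libraries and wildtype. Libraries also differed in sex-linked transcripts. The mean of 4 Y-linked genes was 0.137, 7.99 and 1.89 CPM in wildtype and 3.45, 53.5 and 33.6 in the double libraries, and Xist was 4452, 2903 and 704 and 1814, 61.7 and 52.9 CPM. A031 and A051 were above every wildtype library for the Y-linked mean and below every one for Xist, while A001 lay within the wildtype range for both. Beyond the fits with a Y-linked covariate given beside the results, the part of sex-linked transcripts was not tested.

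**Figure D1:**
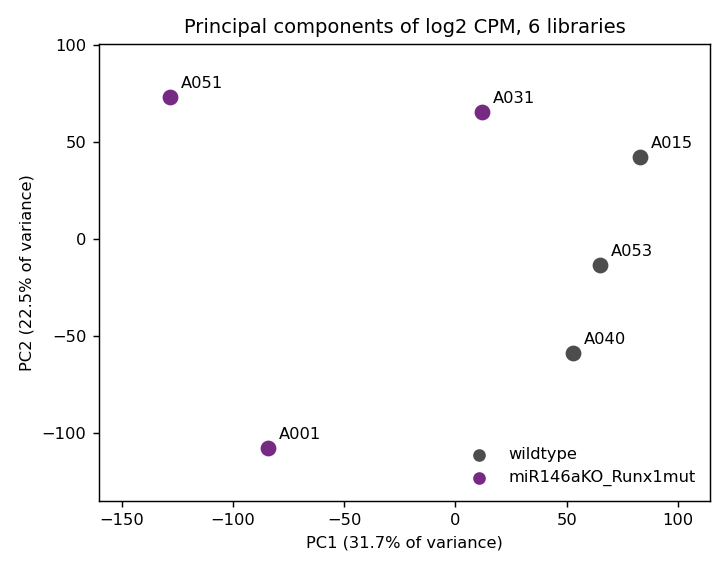
Principal components of log2 CPM over the 6 libraries, with the share of variance on each axis and each library as a point named by its identifier. On the first component wildtype lies at 52.7 to 82.9 and A001 and A051 at -84.3 and -128, with A031 at 12.

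At a Benjamini-Hochberg adjusted p under 0.05 the quasi-likelihood test of edgeR called 0 of the 12744 genes tested (0%), with the smallest adjusted p at 0.282. At an unadjusted p under 0.05 there were 1201 genes (9.42%), of which 636 were higher (4.99%) and 565 lower (4.43%) in the double libraries. limma-voom also called 0, while DESeq2 called 104 higher (0.842% of the 12355 genes it gave an adjusted p) and 86 lower (0.696%). In 806 genes (6.32%) all 3 double libraries lay above all 3 wildtype libraries and in 914 (7.17%) below them. Among these separated genes A031 was the double library nearest to the wildtype mean in 356 of the 806 higher and 470 of the 914 lower ones. No gene below is therefore called changed by edgeR, and each is described by its side and its values.

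**Figure D2:**
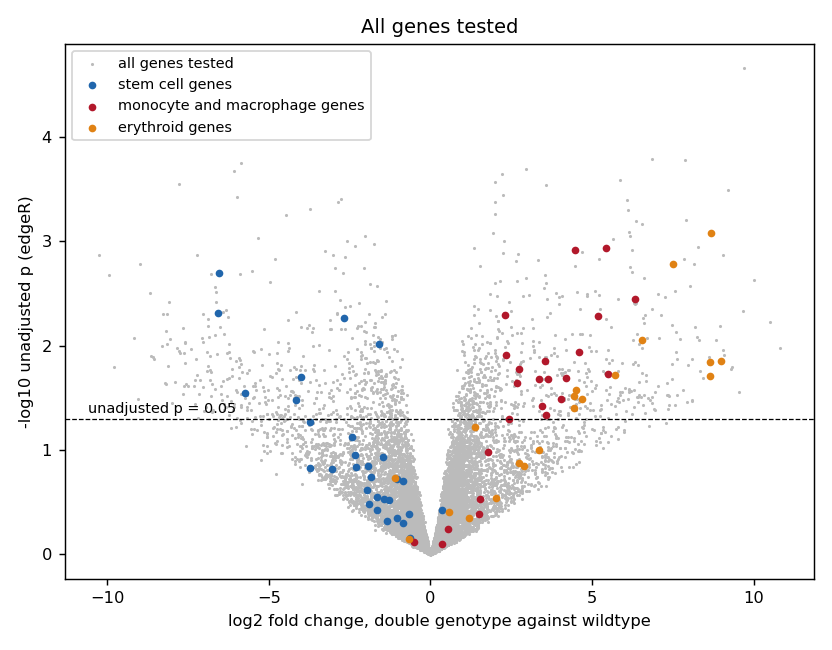
Log2 fold change of the double libraries over wildtype (x) against -log10 of the unadjusted edgeR p (y), 1 point per gene tested. Colours mark the stem cell, the monocyte and macrophage, and the erythroid lists. None of the 12744 genes passes the adjusted threshold.

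The genes named first are the 12 higher and 12 lower ones with the smallest unadjusted p among those whose libraries separate, so separation is part of their choice and not a result. Members named for a list were taken with separated genes first and then by p, so their separation is not a result either. Their edgeR adjusted p ran from 0.282 to 0.356, and DESeq2 gave all 24 an adjusted p under 0.05. Bulk RNA cannot tell more cells of a type from more RNA per cell.

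Sh2d1b1 (chr1:170277320-170286769), which encodes the adaptor EAT-2 of SLAM family receptors, had 0 counts in all 3 wildtype libraries and 19.3, 10.7 and 26.9 CPM in the double libraries. With 3 counts taken as the floor for the whole wildtype group this was at least 114-fold higher, with a lower 95% counting bound of 101-fold. Such intervals cover counting error only. Fcgr4 (chr1:171018920-171029761), an activating receptor for IgG on monocytes and macrophages, stood at 0.547, 1.33 and 0.285 CPM in wildtype and 174, 12.8 and 62.1 in the double libraries (log2 fold change 6.86 ± 1.35). A001 was the highest and A031 the lowest of the double libraries for this gene. Siglec1, a sialic acid receptor of macrophages, was at 0.137, 0 and 0.142 CPM in wildtype and 2.93, 22 and 201 in the double libraries. With 971 counts against 2 the ratio was 588 (162 to 4861 as the 95% counting interval), and most of them came from A051. Slc11a1, a metal transporter of the phagosome, was at 0.684, 0.888 and 0.142 CPM in wildtype and 38.6, 10.1 and 69.6 in the double libraries (log2 fold change 6.10 ± 1.32). Lilrb4a, an inhibitory receptor of myeloid cells with a near-identical neighbour that makes its counts uncertain, was at 4.24, 4.22 and 0.997 and 30.7, 57.4 and 25.2 CPM.

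Other higher genes showed less spread. Itgb2, the beta chain of leukocyte integrins, was at 45.4, 79.7 and 24.3 CPM in wildtype and 201, 166 and 332 in the double libraries (log2 fold change 2.23 ± 0.45, edgeR adjusted p = 0.302). Sla, an adaptor that dampens antigen receptor signals and whose gene overlaps Tg, was at 68, 59.3 and 78 and 265, 319 and 239 CPM (log2 fold change 2.00 ± 0.42). Dok3, an adaptor that restrains immune receptor signalling, was at 1.92, 4 and 3.99 and 20.2, 24.7 and 32.7 CPM (log2 fold change 2.97 ± 0.60). For Sla and Dok3, A031 was at or near the level of the other double libraries. Ypel5 stood at 31.7, 31.8 and 26.6 CPM in wildtype and 160.4, 127 and 140.4 in the double libraries, with a narrow range in each group. Hvcn1, the voltage-gated proton channel, which overlaps Tctn1, was at 10.4, 18.7 and 14.8 and 79.1, 35.4 and 59.4 CPM. Crip2 had 390 counts against 2, a ratio of 236 (64.9 to 1956), and its level in the double libraries ran from 3.73 in A031 to 73.2 CPM in A051. Ddx3y is a Y-linked helicase and follows the sex-linked transcripts, at 0.41, 1.33 and 0.142 and 2.41, 81.9 and 22.1 CPM. With the Y-linked covariate the 12 higher genes had a median log2 fold change of 3.00 in place of 4.72, and without A031 it was 3.73.

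Of the lower genes, Msi2 (chr11:88339382-88718513), an RNA-binding protein that sustains stem cells and myeloid leukaemia, was at 333, 511 and 689 CPM in wildtype and 70.3, 188 and 115 in the double libraries (log2 fold change -2.04 ± 0.49, edgeR adjusted p = 0.356). All double libraries were lower, and A031 was the nearest to wildtype. Aff3, a member of the AF4 family of elongation factors, was at 234, 242 and 519 and 21.5, 42.3 and 102 CPM (log2 fold change -2.59 ± 0.63). Nfat5, a transcription factor of osmotic stress, was at 315, 386 and 237 and 65.1, 142 and 73.2 CPM (log2 fold change -1.74 ± 0.42). Both were still measured in every double library, at 21.5 CPM or more. Dck, the deoxycytidine kinase of nucleoside salvage, was at 28.7, 66.2 and 88.8 and 9.82, 8.88 and 17.9 CPM, and Rcbtb1 at 43.5, 64.8 and 88 and 3.1, 14 and 9.7.

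A second group of lower genes was close to 0 in the double libraries. Pglyrp2, an amidase that cleaves peptidoglycan, stood at 89.8, 59.1 and 32.9 CPM in wildtype and 0.172, 2.13 and 0.727 in the double libraries (log2 fold change -5.87 ± 1.16). Eps8l1, a relative of the actin regulator EPS8, had 618 counts in wildtype and 2 in the double libraries, a ratio of 255 (70.4 to 2112). Il27ra, a receptor chain for interleukin 27 whose gene overlaps Palm3, was at 40.6, 34.6 and 10.5 and 0.861, 0.355 and 0 CPM. In these genes A031 was as low as the other double libraries or within a few CPM of them. Gpr183, an oxysterol receptor that guides immune cell migration and overlaps Ubac2, was at 65.9, 33.1 and 12 and 1.72, 5.33 and 1.21 CPM. Wars2, a mitochondrial tryptophanyl-tRNA synthetase, was at 18.2, 28.2 and 41.9 and 1.03, 0.533 and 2.42 CPM. Cep170b had at most 4.62 CPM in a double library and at least 40.01 in a wildtype one, and the noncoding Lincred1 at most 2.31 and at least 34.3. The median log2 fold change of the 12 lower genes was -4.09, and it was -4.27 with the Y-linked covariate and -4.35 without A031.

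**Figure D3:**
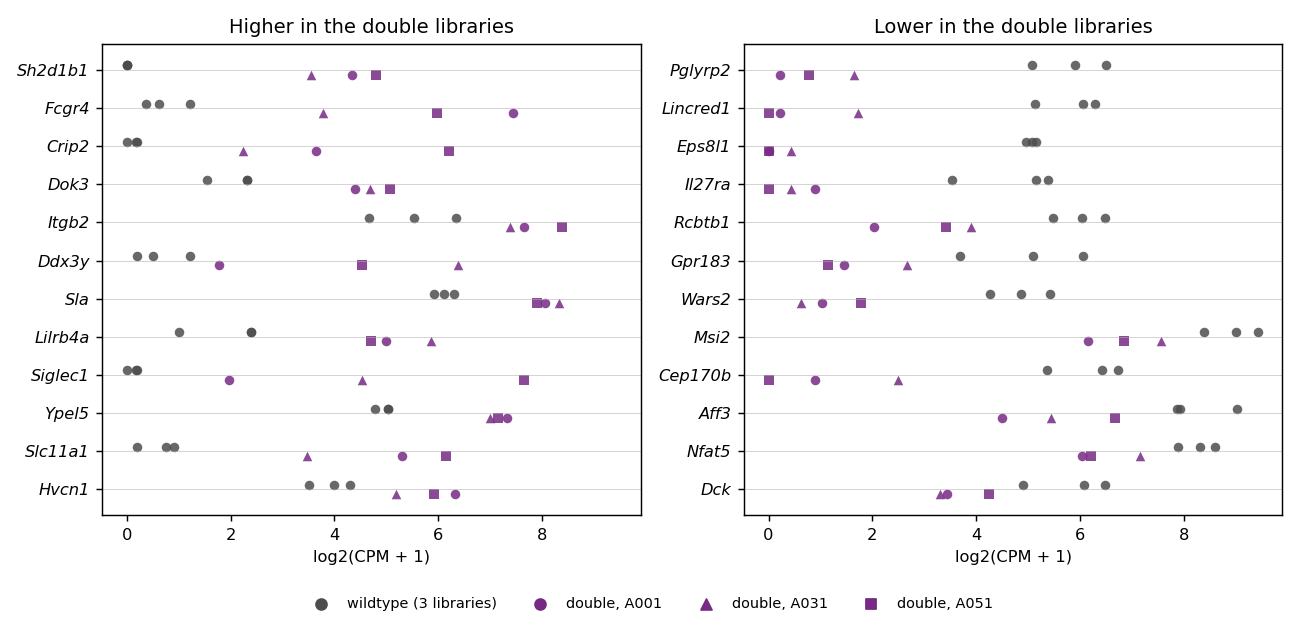
Levels as log2(CPM + 1) for the 12 higher (left) and 12 lower (right) named genes, 1 point per library, wildtype in grey and the double libraries in purple with a circle for A001, a triangle for A031 and a square for A051. The groups separate for all 24 genes because separation was part of the rule that chose them.

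Genes of blood stem cells had lower levels in most double libraries. Of 30 tested, 29 had a lower mean in the double libraries, 7 of them at an unadjusted p under 0.05 (background 4.43%), and the median log2 fold change was -1.87 against 0.03 over all genes tested. The mean log2 CPM of the list was 7.03, 5.87 and 4.76 in wildtype and 1.53, 5.07 and 2.40 in the double libraries, so A001 and A051 lay below wildtype and A031 within its range. A031 was the double library nearest to the wildtype mean in 27 of the 30 genes. Without A031 the median was -4.00 with 19 genes at an unadjusted p under 0.05, and with the Y-linked covariate it was -4.05. It was -0.999 with 4 such genes without A015, -1.38 with 5 without A001 and -1.49 with 4 without A051.

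Procr, the surface receptor EPCR that marks long-term stem cells, was at 269, 166 and 92.8 CPM in wildtype and 0.172, 28.6 and 0.242 in the double libraries. Slamf1, which encodes the stem cell marker CD150, was at 141, 194 and 30.3 and 0.345, 21.5 and 0.485 CPM. In A001 and A051 both were near 0, and in A031 they were at 28.6 and 21.5 CPM. Fgd5, a marker of long-term stem cells, was at 82.1, 17.3 and 29.3 and 0, 1.24 and 0 CPM, and the homeobox gene Nkx2-3 at 40.8, 38.9 and 10.4 and 0.689, 0.178 and 0. All 3 double libraries were below 2 CPM for these last genes, with A031 the highest for Fgd5 and A001 for Nkx2-3. Mllt3, a cofactor that supports stem cell self-renewal, was at 369.8, 269.6 and 112 and 25.8, 64.5 and 26.4 CPM (log2 fold change -2.68 ± 0.82, edgeR adjusted p = 0.462). Of the Hoxa, Meis and Pbx genes, 9 of 13 were on the lower side (median -1.38, -2.32 without A031 and -0.81 without A051) with 0 at an unadjusted p under 0.05, and Hoxa9, a homeobox gene of progenitors and leukaemia, was at 21.8, 16 and 51.1 and 11, 12.1 and 0.727 CPM.

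The genes that define the sort were read against the gate. The 10 tested surface markers of LSK cells had a mean log2 CPM of 6.80, 6.84 and 6.61 in wildtype and 3.88, 6.18 and 4.85 in the double libraries. This mean was lower without overlap, but the members were on both sides. Of the 10, 4 were higher and 6 lower (median -0.82), 0 and 2 at an unadjusted p under 0.05 (background 4.99% and 4.43%). Without A053 it was 5 higher and 5 lower, with a median of -0.50. Kit was at 436, 363 and 218 CPM in wildtype and 178, 219 and 164 in the double libraries, and Ly6a, which encodes Sca-1, at 162, 216 and 46 and 18.6, 121 and 12.1. Both gate genes were therefore present in every library, with the lowest Ly6a in A051 and A001. Cd34 was at 71.1, 112 and 432 and 53.4, 204 and 97.5 CPM and Ptprc, the pan-leukocyte CD45, at 308, 264 and 380.2 and 367, 268 and 411, both overlapping. Of 9 tested genes listed as lineage markers, 6 were on the higher side, 3 of them at an unadjusted p under 0.05 (background 4.99%). The list includes Ptprc, present in every library, so not every member is a marker that the gate excludes. The count of 3 was 0 without A051, with a median of 0.25 in place of 1.39, 0 with the Y-linked covariate and 1 without A015.

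Of 26 monocyte and macrophage genes listed 24 were tested, and 23 had a higher mean in the double libraries, with 17 at an unadjusted p under 0.05 (background 4.99%) and 16 with separated libraries (background 6.32%). The median log2 fold change was 3.40. The list level was 1.83, 4.07 and 2.60 in wildtype and 5.42, 5.20 and 7.54 in the double libraries, without overlap and highest in A051. Without A051 the median was 2.09 with 5 genes at an unadjusted p under 0.05, with the Y-linked covariate it was 2.59 with 7, and without A015 it was 2.93 with 8.

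Csf1r, the receptor for macrophage colony-stimulating factor, whose gene overlaps Hmgxb3, was at 4.65, 34.2 and 25.5 CPM in wildtype and 260.0, 60.1 and 479 in the double libraries (log2 fold change 3.64 ± 1.40, edgeR adjusted p = 0.475). Tyrobp, the signalling adaptor DAP12, was at 17.9, 62.8 and 110.5 and 179, 220.1 and 559 CPM. Lgals3, a galectin of macrophages, was at 2.46, 7.99 and 1.14 and 109, 27.9 and 114 CPM. In each of these A031 was the lowest double library or near it, and still above every wildtype library. Spic, the transcription factor of red pulp and bone marrow macrophages that handle iron, was at 0.41, 1.11 and 0.712 and 8.27, 22.9 and 66.4 CPM. Ms4a7 had 199 counts against 3, a ratio of 80.3 (27.1 to 393).

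Other myeloid lists had smaller medians. All 22 neutrophil granule genes had a higher mean in the double libraries (median 1.69). Only 1 (4.55%) was at an unadjusted p under 0.05, near the background of 4.99%. Without A051, 17 of 22 were on the higher side with a median of 1.00. The list level was 4.65, 5.90 and 4.91 in wildtype and 6.37, 6.02 and 7.86 in the double libraries. Among granulocyte and monocyte transcription factors 17 of 20 were on the higher side, 4 at an unadjusted p under 0.05 (background 4.99%), with a median of 1.40. The median was 0.81 without A031, and the 4 genes were 7 without A015 and 2 with the Y-linked covariate. Gfi1, a repressor that directs granulocyte formation, was at 53.1, 70.8 and 39.6 CPM in wildtype and 448, 95.8 and 299 in the double libraries. Klf4, a factor of monocyte differentiation, was at 9.44, 6.22 and 0.57 and 37.4, 38 and 39.8 CPM, with the double libraries close together and all above wildtype (log2 fold change 2.82 ± 0.94, edgeR adjusted p = 0.475). Cebpd, which overlaps Spidr, was at 5.88, 8.22 and 6.41 and 15.2, 18.5 and 40.01 CPM. Of 20 myeloid cytokine receptors 13 were on the higher side (median 0.26), 2 at an unadjusted p under 0.05 (background 4.99%). Without A015 it was 9 of 20 (median -0.12) and without A040 10 of 20, so the list had no stable side. Csf2rb, the shared beta chain, was at 23.3, 205 and 74.6 and 321, 333 and 249 CPM.

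**Figure D4:**
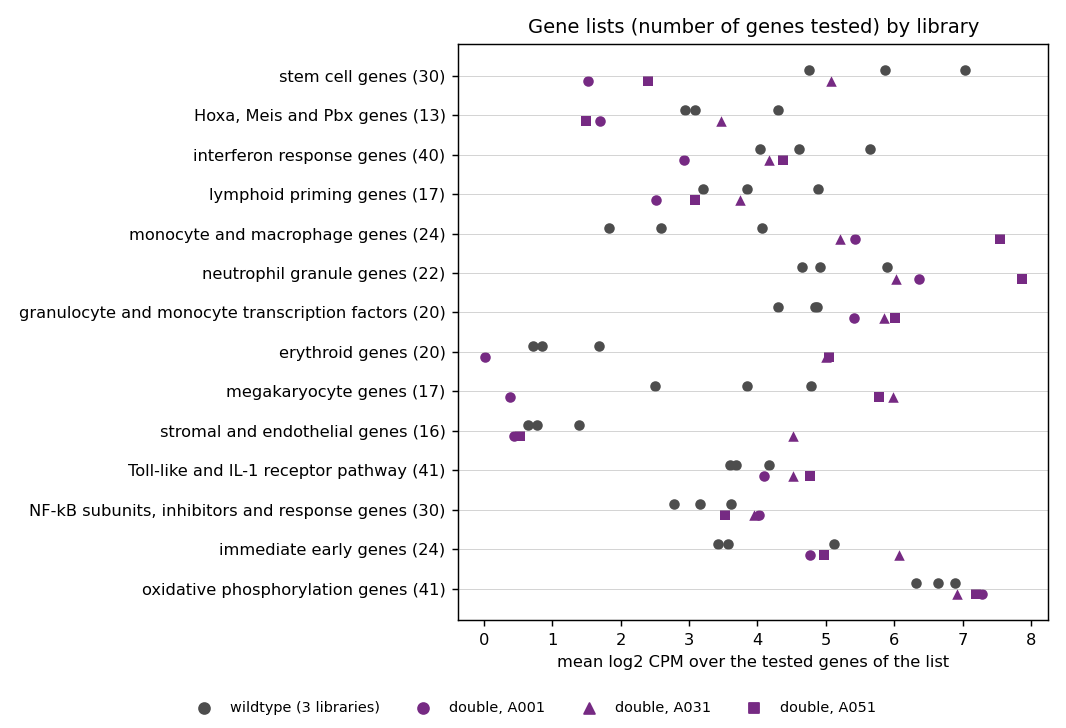
Mean log2 CPM over the tested genes of each list, 1 point per library, wildtype in grey and the double libraries in purple with a circle for A001, a triangle for A031 and a square for A051. Monocyte and macrophage genes lie higher without overlap, and A031 lies within the wildtype range for stem cell genes.

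Red cell, platelet and stromal genes split the double libraries instead of separating the groups. Of 26 erythroid genes listed 20 were tested and 18 were on the higher side, 11 at an unadjusted p under 0.05 (background 4.99%), with 0 separated and a median of 4.44. The list level was 0.02 in A001 but 5.01 in A031 and 5.04 in A051, against 1.68, 0.72 and 0.86 in wildtype. Car1, a carbonic anhydrase of red cell precursors, was at 2.05, 0.444 and 0.285 CPM in wildtype and 0.172, 579 and 628 in the double libraries. The count of 11 was 1 with the Y-linked covariate, 6 without A051 or A053, 7 without A040 and 9 without A031 (median 3.46). By limma-voom it was 2 (median 2.46). With only the 2 groups in the fit 12 erythroid genes were tested, with 5 higher at that p (median 2.82). A031 and A051 were also highest for megakaryocyte genes, with list levels of 4.79, 3.85 and 2.50 in wildtype and 0.38, 5.98 and 5.77 in the double libraries. Itga2b, the platelet integrin chain, was at 95, 71.5 and 49.98 and 4.48, 894 and 309 CPM (log2 fold change 2.48 ± 1.19, 1.12 without A031 and -0.43 with the Y-linked covariate). The median of the megakaryocyte list was 1.33, and it was 0.78 without A031, 0.64 without A051 and -0.21 by limma-voom.

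Stromal and endothelial genes (16 tested of 20 listed) were high in A031 alone among the 6 libraries, with a list level of 4.52 against 0.44 in A001, 0.52 in A051 and 0.64 to 1.40 in wildtype. Cxcl12, the chemokine that marrow stroma makes to hold stem cells, was at 0.684, 0.222 and 0.57 CPM in wildtype and 0.345, 468 and 0 in the double libraries. The list median was 3.45, and it was -0.89 without A031 and -0.15 with only the 2 groups in the fit, so its side depends on that library. The part of stromal, erythroid and megakaryocyte transcripts in other results was not tested.

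Lymphoid genes showed no common side. Of 17 lymphoid priming genes 11 were on the lower side, with 1 higher and 3 lower at an unadjusted p under 0.05 (background 4.99% and 4.43%) and a median of -0.51. Without A053 the list turned, with 10 of 17 on the higher side and a median of 0.21. Rag2, a recombinase subunit that overlaps B230118H07Rik, had 145 counts in wildtype and 0 in the double libraries, at least 39.9-fold lower. Bcl11a, a factor of lymphoid and early progenitors, was at 283, 223 and 195 and 97.5, 46.2 and 29.3 CPM, and Cd27 at 143, 137 and 284 and 59.4, 60.2 and 11.9. Both lay lower in all double libraries, and separated genes were named first. Over the list 4 of 17 separated lower and 0 higher (background 7.17% and 6.32%). The higher side held 10 of 18 B lineage genes (median 0.28), 7 of 14 T and NK genes (0.54, and 1.19 with genes at 0 in a group set to their bound), 9 of 13 dendritic genes (0.48) and 9 of 11 MHC class II genes (0.51). Without A051 the medians were -0.12 for B lineage and -0.34 for T and NK genes, and with the Y-linked covariate they were -0.24 for T and NK and -0.19 for dendritic genes. The MHC class II median was 0.14 without A031. The NK receptor gene Klrb1c, which overlaps Gm44511, had 741 counts in wildtype and 1 in the double libraries, a ratio of 612 (109.5 to 24206), though A053 held few of them at 2.28 CPM.

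The signalling targets of miR-146a overlapped between the groups. Traf6 was at 83.7, 69.7 and 151.4 CPM in wildtype and 115, 189 and 103 in the double libraries, Irak1 at 101, 219.6 and 132 and 196, 179.8 and 171, and Irak2 at 5.88, 2.66 and 7.83 and 2.24, 17.9 and 18.4. None passed the test, with edgeR adjusted p of 0.801, 0.855 and 0.657. Over the 16 tested targets 8 were higher and 8 lower (median 0.01). The higher side held 10 without A015 (median 0.28), 10 without A040 (0.32), 12 without A001 (0.24) and 7 without A053 (-0.07). The scaffold gene Card10 had 54 counts in wildtype and 1 in the double libraries. Of 11702 tested genes with a 3′ untranslated region, 1623 (13.9%) hold the seed match AGTTCTC at least once. Their median log2 fold change was -0.03, against 0.06 for the 10079 without it. Genes with a site have longer untranslated regions, with a median of 2756 bases against 1200.

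The pathway of these targets was read next. Of 41 genes listed for Toll-like and IL-1 receptor signalling 25 were on the higher side, with 7 higher and 0 lower at an unadjusted p under 0.05 (background 4.99% and 4.43%). The counts were 2 higher and 2 lower with the Y-linked covariate, 3 and 0 without A051 and 4 and 0 without A015. Tlr1, a receptor for bacterial lipopeptides, had 264 counts against 1, a ratio of 319.6 (56.9 to 12672). Tlr7, the receptor for single-stranded RNA, was at 0.137, 0.888 and 4.7 CPM in wildtype and 10.9, 46.5 and 144 in the double libraries. Cd14, the co-receptor for lipopolysaccharide, was at 0.547, 0.666 and 0 and 6.89, 9.24 and 4.36 CPM. Of the 41 genes 4 separated higher and 0 lower (background 6.32% and 7.17%), and separated genes were named first. That all double libraries were above wildtype for Tlr1, Tlr7 and Cd14 is therefore part of their choice. Monocytes and macrophages also express them, the level of that marker list was higher in the same libraries (5.20 to 7.54 against 1.83 to 4.07), and its part was not tested.

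Of 30 NF-kB genes 22 were on the higher side, 4 higher and 2 lower at an unadjusted p under 0.05 (background 4.99% and 4.43%), with a median of 0.63. The median was 0.27 without A053, and the 4 genes were 2 without A040 or A031. Nfkbia, the inhibitor that NF-kB itself induces, was at 36.4, 24.4 and 50.1 CPM in wildtype and 65.8, 93.3 and 91.7 in the double libraries. A second inhibitor, Nfkbie, lay on the other side at 21.8, 22.6 and 43.9 and 15.3, 11.4 and 9.46 CPM. Interferon response genes were lower in 28 of 40, 0 higher and 4 lower at an unadjusted p under 0.05 (background 4.99% and 4.43%), with a median of -0.87. Without A015 the list was nearly even, at 19 higher and 21 lower with a median of -0.15 and 1 higher and 2 lower at that p, and without A001 it was 1 higher and 2 lower. Ifitm3, a membrane protein that restricts viruses, was at 944, 582 and 511 CPM in wildtype and 179, 285 and 299.7 in the double libraries, and Ifitm1 at 375, 319.5 and 166 and 72.7, 12.3 and 15. Irf1, a transcription factor of the interferon response, which overlaps Gm17334, was at 77.7, 123 and 48.6 and 30.1, 23.6 and 14.8 CPM (log2 fold change -1.86 ± 0.51, edgeR adjusted p = 0.408). In these 3 genes the double libraries lay below wildtype, A031 included, which is part of their choice. Over the list 6 of 40 separated lower and 0 higher (background 7.17% and 6.32%).

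Of 26 RUNX1 targets 20 were on the higher side, 6 at an unadjusted p under 0.05 (background 4.99%, median 1.39), and several of them, such as Csf1r and Gfi1, stand in the myeloid lists too. The count was 2 higher and 1 lower without A051, 3 and 1 with the Y-linked covariate and 3 and 0 without A015. Cd36, a scavenger receptor, was at 1.51, 0 and 0 CPM in wildtype and 11, 20.1 and 30.1 in the double libraries. The RUNX motif TGTGGT, searched on both strands of 300 bases around the start site, was present in 13.1% of the 7780 tested genes with 1 promoter in the table. It was present in 14.2% of the higher and 12.4% of the lower genes at an unadjusted p under 0.05. Of the named genes with 1 promoter, 2 of 5 higher ones (Sh2d1b1 and Fcgr4) and 1 of 9 lower ones (Dck) hold it, shown in windows of 30 bases from RefSeq (GRCm38.p6) with the motif or its complement in capitals.
Sh2d1b1, chr1:170277252-170277281, plus strand: tcatttgtttagACCACAgtggaggaacag
Fcgr4, chr1:171018788-171018817, plus strand: tgtccctgccctACCACAgggctcacccat
Fcgr4, chr1:171018937-171018966, plus strand: gttccggatatcTGTGGTgacattttctat
Dck, chr5:88765031-88765060, plus strand: ccgcccggaggaACCACAgacatgcagatc
A match is a description of these letters and does not show binding.

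Immediate early genes, which respond to growth and stress signals within minutes and to cell handling, were on the higher side in 21 of 24, 6 at an unadjusted p under 0.05 (background 4.99%, median 1.10). Fos was at 147, 92.8 and 21.4 CPM in wildtype and 208, 629.8 and 239.6 in the double libraries, and the phosphatase gene Dusp1, which overlaps Ergic1, at 302, 39.5 and 69.9 and 452, 712 and 549. A031 was the highest library for both, and without it the list median was 0.58 with 2 genes at an unadjusted p under 0.05. It was 1.67 with 9 genes without A015 and 0.92 with 3 without A040. Of 41 oxidative phosphorylation genes 35 were on the higher side, 7 at an unadjusted p under 0.05 (background 4.99%, median 0.49). Their list level was 6.31, 6.63 and 6.89 in wildtype and 7.28, 6.91 and 7.19 in the double libraries. These levels did not overlap, though A031 was barely above A053. The 7 genes were 1 without A015, 1 without A040, 2 with the Y-linked covariate and 4 without A051. Ndufa2, a subunit of complex I, was at 77.9, 78.8 and 129 and 291, 185 and 236 CPM (log2 fold change 1.32 ± 0.44, edgeR adjusted p = 0.475). Ribosomal protein genes (35 of 52 higher, median 0.14), ribosome biogenesis genes (24 of 27, 0.13) and glycolysis genes (11 of 19, 0.24) had small medians. The median turned to -0.08 without A040 for ribosomal protein and to -0.16 without A001 for glycolysis genes. For ribosome biogenesis the 24 genes were 20 by DESeq2 or limma-voom, 16 without A015 or A040 and 15 without A001 (median 0.04). Of 36 cell cycle genes 23 were on the higher side (median 0.33, and -0.03 without A015 or without A001). The libraries separated in 1 higher and 3 lower of the 36 genes (background 6.32% and 7.17%), and these 4 are the ones named. Cdc20, an activator of the anaphase complex that overlaps Elovl1, was higher at 16.8, 62.8 and 39.9 and 106, 95.2 and 113 CPM. The D-type cyclins, which drive entry into the cycle, were lower, with Ccnd1 at 255, 93.9 and 222 and 31.2, 72.7 and 70.3 CPM (log2 fold change -1.71 ± 0.63). Ccnd2 and Ccnd3 had log2 fold changes of -0.84 ± 0.52 and -0.62 ± 0.38.

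The double libraries were then set beside each single genotype, in comparisons that share the double libraries. Against Runx1mut edgeR called 0 genes, with the smallest adjusted p at 0.763 and 590 genes (4.63%) at an unadjusted p under 0.05. Against miR146aKO it called 2 (0.0157%), Ext2 and Cd2, with 1882 genes (14.8%) at an unadjusted p under 0.05. Cd2, an adhesion receptor of lymphocytes, was at 95.5, 78.4 and 82.8 CPM in A047, A150 and A151 of miR146aKO and 0.172, 0.178 and 0.242 in the double libraries, and its log2 level fell by 8.62 (SE 1.02; adjusted p by edgeR = 0.00756). Ext2, an enzyme of heparan sulphate synthesis, fell by 3.84 (SE 0.48, edgeR adjusted p = 0.00756), from 473, 649 and 405 CPM to 34.1, 56.7 and 15.8. The count against miR146aKO was 0 without A001, 5 without A015, 6 without A021 and 7 without A042 or A051, and 653 by DESeq2.

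Some of the leading genes are given here in the single genotypes, as values only. Hvcn1 was at 72.5, 75.7 and 57.8 CPM in A021, A042 and A058 of Runx1mut and 143, 259 and 222 in miR146aKO, so the double libraries lay below the miR-146a knockout (log2 fold change against it -1.84 ± 0.43, edgeR adjusted p = 0.114). Gpr183 was at 2.98, 3.13 and 9.92 CPM in Runx1mut and 66.1, 102 and 96.4 in miR146aKO. For Gpr183 the double libraries overlapped Runx1mut and lay below all miR146aKO libraries (log2 fold change -4.98 ± 0.87, edgeR adjusted p = 0.0537). Pglyrp2 was at 4.11, 8.82 and 3.08 CPM in Runx1mut and 106, 13.6 and 9.74 in miR146aKO.

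Lists were set beside the single genotypes too. Stem cell genes were also lower in both single genotypes, with a median log2 fold change against wildtype of -1.58 in Runx1mut and -2.77 in miR146aKO. For the double libraries their median was -0.50 against Runx1mut and 0.80 against miR146aKO. In the latter comparison 6 of 30 were higher and 2 lower at an unadjusted p under 0.05 (background 7.6% and 7.17%). Monocyte and macrophage genes had a median log2 fold change of 2.82 against Runx1mut, 14 of 24 higher at an unadjusted p under 0.05 (background 2.88%), and -1.27 against miR146aKO. Slc11a1 was at 0.426, 0.142 and 2.91 CPM in Runx1mut and 9.48, 173 and 155 in miR146aKO. B lineage genes had a median of -4.93 against miR146aKO with 15 of 18 lower at an unadjusted p under 0.05 (background 7.17%), T and NK genes -5.90 with 10 of 14, and MHC class II genes -3.91 with 8 of 11. Megakaryocyte genes stood at 3.34 against miR146aKO, 11 of 17 higher at an unadjusted p under 0.05 (background 7.6%). Erythroid genes had a median of 4.91 against Runx1mut, 12 of 20 higher at an unadjusted p under 0.05 (background 2.88%). In A001, however, the list level was 0.02.

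**Figure D5:**
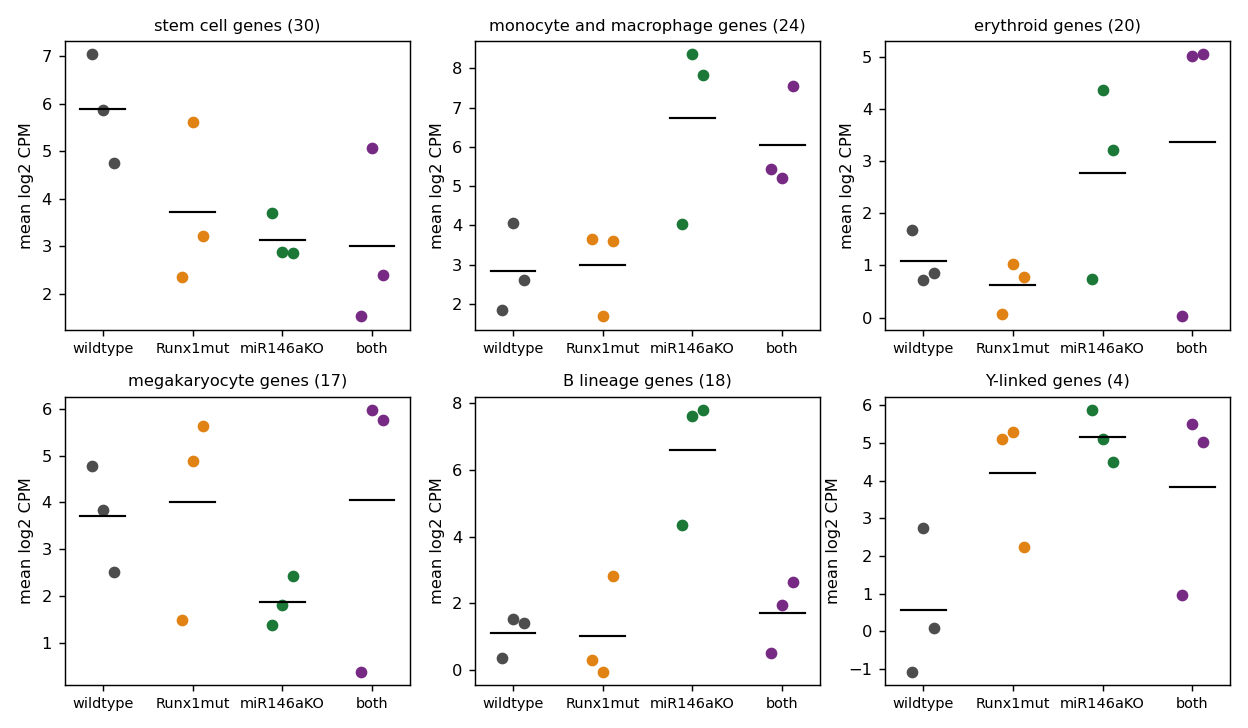
Mean log2 CPM over the tested genes of 6 lists in all 12 libraries by genotype, 1 point per library and a line at the mean of 3. In the double group (labelled both) erythroid and megakaryocyte genes split A001 from A031 and A051, and B lineage genes lie below miR146aKO.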

How the data were processed

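RNA of sorted cells was amplified (NuGEN Ovation v2) and made into Nextera XT libraries, per the labels' protocols, a method that does not keep strand. The authors deposited raw read counts per gene symbol. The tools named for the deposited counts in the submitters' processing notes are HISAT2 2.0.4, then featureCounts 1.5.2 and FastQC 0.11.2, with build mm10. Neither the strand setting nor the annotation used for counting is given in the sources here. The deposited metadata ties each column to a group without a replicate number, so libraries keep their column identifiers.

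Counts of all 12 libraries were fitted together with edgeR 4.0.16 (R 4.3.3: TMM, filterByExpr, quasi-likelihood test), with Benjamini-Hochberg adjustment over the 12744 genes kept of 24421. 5211 symbols had no count. The common biological coefficient of variation was 0.809. List levels are mean log2 CPM with a prior count of 2. Alternatives were RLE size factors, no filter, DESeq2 1.42.0, limma-voom 3.58.1, only the 2 groups, Rn45s left out, a Y-linked covariate and each library left out. The scripts were tested on simulated data. Named genes are the 12 higher and 12 lower genes of smallest p with separated libraries and a mean of at least 10 CPM in the higher group, without predicted models. Up to 4 members per list were added, separated ones first and then by smallest p, with overlap allowed where fewer than 4 separate. Runx1, Runx2, Runx3, Cbfb, Mir146, Traf6, Irak1, Irak2, Kit, Ly6a, Cd34 and Ptprc were always included. Members and lists were chosen with earlier results of these data known. GENCODE matched 23376 symbols.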

Additional observations from a re-analysis of the deposited data

How the results depend on the processing

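The count of genes at an adjusted p under 0.05 against wildtype, 0 in the main edgeR test, was 256 without the low-count filter (193 higher, 63 lower) and 190 by DESeq2 (104 higher, 86 lower), and 0 with each library left out in turn. Against Runx1mut the corresponding counts were 144 and 78, and 0 with each library left out. Against miR146aKO the 2 genes became 13 with RLE size factors, 549 without the filter, 653 by DESeq2, 12 by limma-voom, 4 with only the 2 groups compared and 11 with Rn45s left out, and 0 to 7 with each library left out. The cause was not tested. At an unadjusted p under 0.05 the count against wildtype ran from 804 with only the 2 groups to 1781 without the filter. The split of higher and lower genes, 636 and 565, was 539 and 727 by limma-voom and 684 and 1020 without A031. With the Y-linked covariate it was 482 and 575, 424 and 599 without A053, and 670 and 446 without A001. With the Y-linked covariate Itga2b had a log2 fold change of -0.43, Runx2 -0.29 and Runx3 -0.40. With 1 library left out in turn, log2 fold changes ran from -1.44 to 0.35 for Cd34, -1.30 to 8.77 for Cxcl12, -0.060 to 0.29 for Ptprc, -0.71 to 0.66 for Runx2 and -0.081 to 0.32 for Runx3. No paired analysis was possible because the count columns carry no replicate numbers. Counts of 4387524 to 6642886 per wildtype library limit the precision for genes with few counts.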

Other observations

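Among genes recurrently mutated in myeloid neoplasms, 17 of 34 tested had a higher and 17 a lower mean in the double libraries (median log2 fold change -0.01), with 0 higher and 4 lower at an unadjusted p under 0.05 by edgeR (background 4.99% and 4.43%) and 0 at an adjusted p. The 4 genes were 2 without A015, A053 or A001 and 1 without A051, and the median was -0.27 without A015. In the list 4 of 34 genes separated lower and 1 higher (background 7.17% and 6.32%). Phf6, Etv6 and Kmt2a are among the lower ones, and separated genes were named first. Of 25 cell cycle inhibitors and p53 targets 13 were on the higher side (median 0.10). At an unadjusted p under 0.05 by edgeR 3 were higher and 0 lower (background 4.99% and 4.43%). The 3 genes were 0 without A053 and 1 without A040 or A031, and the median was -0.09 without A031.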
